A study of Mus musculus with 32 samples.

Results

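The genes described here carry proteins into the endoplasmic reticulum (ER) and move them between membranes, in the liver of old mice under calorie restriction or drug treatment. They were taken by gene symbol: the signal recognition particle (Srp), the Sec genes of the translocation channel, the signal peptidase and the coats, the translocon-associated protein complex (Ssr), the other signal peptidase subunits (Spcs), the COPI coat (Copa to Copz), the p24 cargo receptors (Tmed), and the Arf, Rab, Vamp and syntaxin (Stx) families. The rule found 142 probe sets for 104 genes, of 8251 genes that had a probe set with a single symbol. Of these, 115 probe sets for 88 genes were bright enough over all arrays to be tested. The symbol patterns also took in a few genes outside this traffic by function: the antisense RNAs Rab10os and Rab26os, the fucosyltransferase gene Sec1, and the lipid-binding genes Sec14l1 and Sec14l2.

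RNA from the livers of 32 male B6C3F1 mice, a hybrid strain, had been hybridised to Affymetrix MG-U74Av2 arrays, 1 mouse to an array, in 8 groups of 4. LTCR mice had been calorie restricted at 52.2 kcal per week since the age of 5 months. CR8 mice had been restricted for 8 weeks from 20 months, at 77 kcal per week during the first 2 weeks and at 52.2 kcal per week afterwards. MET mice received metformin, GLIP mice glipizide, GM mice glipizide together with metformin, ROS mice rosiglitazone and SOY mice a soy isoflavone extract, each in the control diet for 8 weeks from 20 months and at doses not given in the sources used here. CON mice ate 93 kcal per week of the control diet. Every group was killed at 22 months following 48 h without food, and every mouse lived alone in its cage after 5 months. LTCR and CR8 thus differed in how long restriction had lasted, in the age at which it began and in the intermediate step. The whole liver was sampled, so that fewer cells of a type and less RNA per cell cannot be told apart.

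Proteins bound for secretion, for membranes or for lysosomes enter the ER while they are made. The signal recognition particle binds the emerging signal sequence and takes the ribosome to the Sec61 channel, where the translocon-associated complex sits beside the pore and the signal peptidase removes the signal. COPII-coated vesicles carry cargo from the ER to the Golgi apparatus and COPI-coated vesicles carry it back. Arf and Rab GTPases mark membranes and recruit coats and tethers, and SNARE proteins such as the Vamps and syntaxins fuse the vesicle with its target. The hepatocyte is known for a heavy secretory load, since it makes most plasma proteins and lipoproteins.

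Arrays of the same group correlated at 0.953 to 0.976 over all probe sets, and arrays of different groups at 0.928 to 0.977. Of the hepatocyte markers, 6 of 7 were on the array, and their summed intensity was 133700 to 162100 in LTCR livers, 118300 to 138100 in CR8 livers and 114900 to 127600 in CON livers. For the 10 markers of Kupffer cells and macrophages the sum was 2648 to 3471 in LTCR livers, 2538 to 4055 in CR8 livers and 4033 to 5251 in CON livers, and Marco lay below 27 on all 32 arrays. The stellate cell and fibroblast sum, over 5 markers, was 2954 to 5084 in LTCR livers, 4699 to 6141 in CR8 livers and 4490 to 6812 in CON livers. Hepatocyte and macrophage sums of LTCR and CON livers did not overlap, and the part of these cells in the results below was not tested. Skeletal muscle transcripts stood out on 5 arrays, CR8 1, CR8 2, ROS 4, SOY 3 and CON 3; the sum of the 9 muscle markers on the array reached 3515 in LTCR livers, 13970 in CR8 livers and 18010 in CON livers. The ratio of 3' to 5' control probe sets for pyruvate carboxylase, a measure of RNA integrity or labelling length on the log2 scale, averaged 1.03 ± 0.11 in LTCR livers, 1.83 ± 0.35 in CR8 livers and 1.21 ± 0.52 in CON livers (SD, n = 4 each).

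Intensities were compared as log2(intensity + 27), and a probe set was called when its adjusted p was under 0.05. Across the 8 groups, the moderated F test called 44 of the 115 tested probe sets, for 38 genes, which was 38.3% against 27% of all 7357 tested probe sets. The smallest p-values belonged to Rab18 (adjusted p = 2.62e-06), Srp14 (2.02e-05), Rab5c and Sec61b (2e-04 each), Sec23b (0.000276), Ssr3 (0.000284), Copb2 (0.000292) and Arf5 (0.000567). They include a GTPase of lipid droplets and the ER, a signal recognition particle subunit, an endosomal GTPase, a channel subunit and the coat subunits Sec23b and Copb2. By role, the F test called 4 of 5 p24 probe sets, 4 of 6 of the translocon-associated complex, 5 of 8 of the channel and 5 of 8 Arf probe sets, against 10 of 34 for the Rabs, 1 of 9 for the Vamps and 2 of 8 for the syntaxins.

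**Figure D1:**
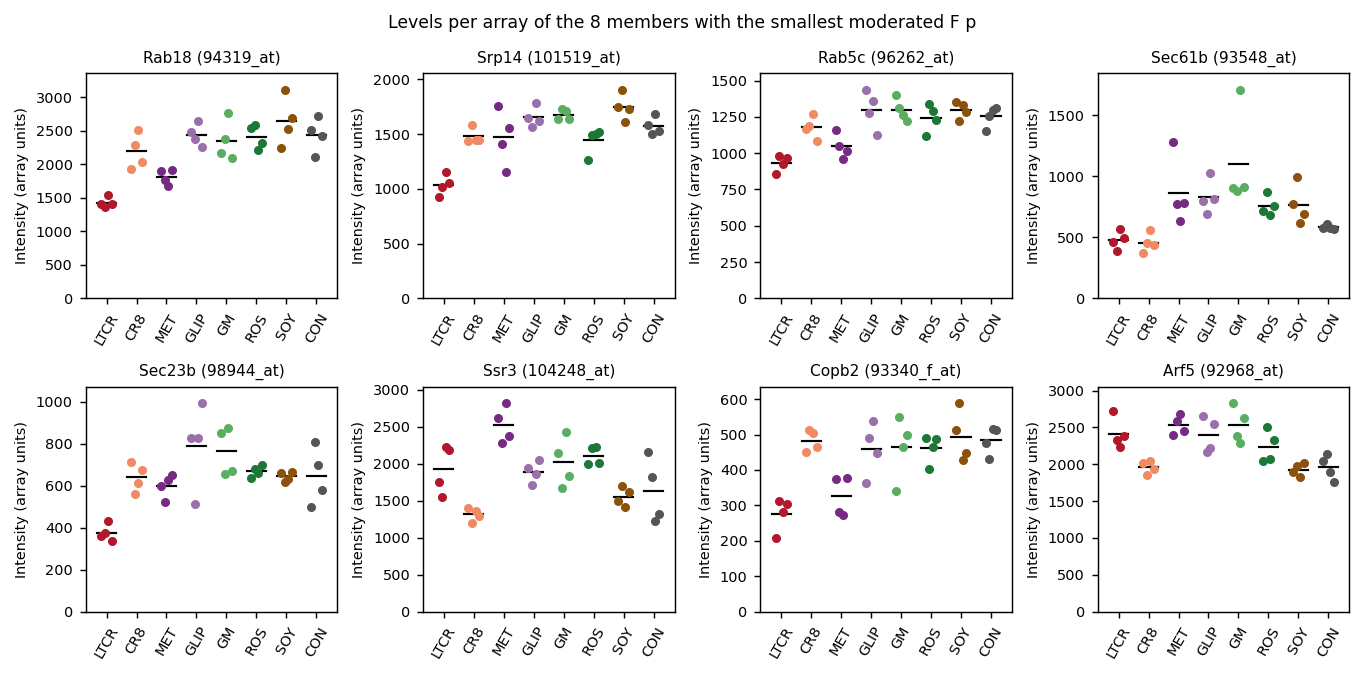
Intensity (array units, linear axis) of the 8 members with the smallest moderated F p, 1 point per array in the 8 groups and a line at each group mean. Rab18, Srp14, Rab5c, Sec23b and Copb2 lie lowest in LTCR livers, with MET livers next for Rab18, Rab5c, Copb2 and Sec23b, while every Arf5 array of LTCR, MET, GLIP and GM livers lies above those of CON livers.

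The comparison of LTCR with CON livers asked what lifelong restriction did to this machinery. It called 31 of the 115 probe sets (27%), against 19.3% of all tested probe sets. Lower in LTCR livers were 23 probe sets for 22 genes, which was 20% of those tested beside a background of 11.8%, and higher were 8 for 8 genes, 6.96% beside 7.53%. The median log2 change was -0.10 over the tested members and 0.00 over all tested probe sets. Groups overlapped for Tmed9, Stx5a and the lower Sec61a1 probe set, and did not overlap for the other called probe sets. Without the 5 arrays that carry muscle transcripts 25 of these calls were made, 6 higher and 19 lower, and with the 3' to 5' ratio as a covariate 29, 7 higher and 22 lower. The role counts below are read against 11.8% lower and 7.53% higher over all tested probe sets, and in a role with few probe sets a single call weighs heavily. The called members lay in every role except the Vamps, the Sec14-like genes and the antisense RNA.

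**Figure D2:**
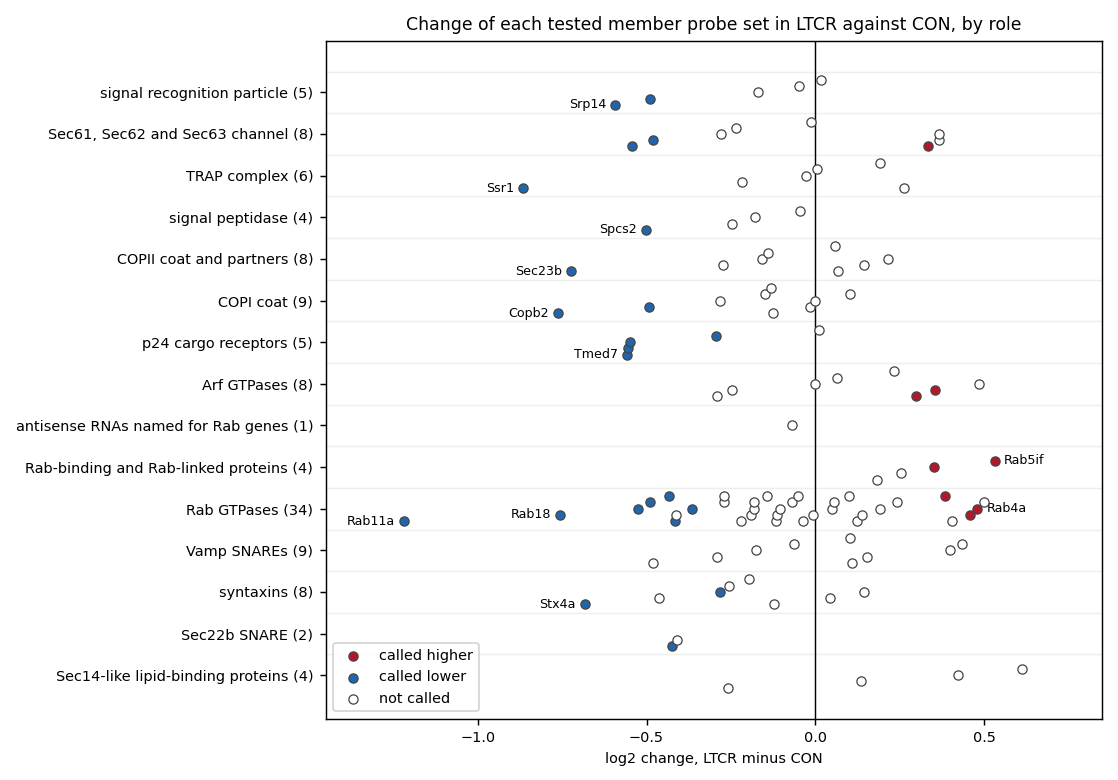
The log2 change of each of the 115 tested probe sets, LTCR minus CON, by role with the number of tested probe sets in brackets; filled points passed an adjusted p of 0.05. Blue points, called lower, lie in most roles down to -1.22 for Rab11a, and red points, called higher, lie among the Arf, Rab and Rab-linked genes and for 1 Sec61a1 probe set.

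At the first step, 2 of 5 signal recognition particle probe sets fell in LTCR livers. Srp14, which with Srp9 slows translation until the ribosome has docked, had intensities of 925.4, 1019.6, 1154.1 and 1052.7 in LTCR livers, against 1584.4, 1501, 1687.5 and 1530.6 in CON livers. The groups did not overlap and the log2 change was -0.59 ± 0.09 (SE), with an adjusted p of 3.11e-05. Srp19, which binds the RNA of the particle, had 216.9, 157.4, 226.9 and 158.7 in LTCR livers, against 254, 256.3, 325.3 and 267.3 in CON livers. Its change of -0.49 ± 0.15 passed the test (adjusted p = 0.0209), but not with LTCR 2, LTCR 4 or CON 3 left out (adjusted p between 0.0787 and 0.0837). Srp9, Srp54b and Srp68 were not called, at -0.17, 0.02 and -0.05.

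The translocation channel gave calls in both directions. Sec61a1 codes for the pore and had 2 tested probe sets that were called oppositely. On 160291_at the intensities were 743.8, 863.9, 1389 and 868.2 in LTCR livers, against 1280.9, 1269, 1345.8 and 1387.4 in CON livers. The groups overlapped through LTCR 3, and the change of -0.48 ± 0.13 (adjusted p = 0.00921) lost its call without LTCR 1 (adjusted p = 0.0595). On 97882_at the intensities were 2969.8, 2806.5, 2623.8 and 2948.8 in LTCR livers, against 2183.3, 2341.5, 2143 and 2315.1 in CON livers, without overlap, and the change was 0.33 ± 0.09 (adjusted p = 0.0121). The 2 probe sets thus give no single direction for the gene. Sec62, a partner of the channel for short secretory proteins, fell on 1 of its 3 probe sets, 92531_at, with 110.5, 116, 95.9 and 70.9 in LTCR livers, against 192.4, 159.1, 136.2 and 133.3 in CON livers. That change was -0.54 ± 0.14 (adjusted p = 0.00547), and the others stood at 0.37 and -0.23, not called. Sec61a2, Sec61b and Sec63 were not called, at 0.37, -0.28 and -0.01.

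Beside the pore, Ssr1, a subunit of the translocon-associated complex, fell on 94511_at. Its intensities were 58.3, 68.3, 50.3 and 56.6 in LTCR livers, against 138.4, 124.6, 114.2 and 136.3 in CON livers, a log2 change of -0.87 ± 0.21 (adjusted p = 0.00345). The groups did not overlap, but the second Ssr1 probe set, 97722_at, stood at 0.01 ± 0.11. Ssr2 and the 3 probe sets of Ssr3 were not called, at -0.03 and between -0.22 and 0.26. Spcs2, an accessory subunit of the signal peptidase, had 467.3, 483.7, 611 and 520 in LTCR livers, against 710.9, 805.9, 740.7 and 722.3 in CON livers. It fell by 0.50 on the log2 scale (SE 0.11, adjusted p = 0.00179) without overlap. The catalytic subunits Sec11a and Sec11c and the accessory Spcs1 were not called, at -0.18, -0.05 and -0.25.

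The upstream sequences of the whole gene set were searched for motifs of the unfolded protein response, the ER stress pathway that switches on many genes of ER import and traffic. RefSeq promoter windows, 250 bases before to 50 bases after a transcript start in GRCm38.p6, were at hand for 91 of the 104 genes, 109 windows in all. On both strands, ERSE (CCAAT, 9 bases, CCACG) and ERSE-II (ATTGG, 1 base, CCACG) had no match in these windows, beside 0.119% and 0.0365% of all 32851 windows and 0.141% and 0.0517% of the 21263 protein-coding ones. UPRE (TGACGTGG) had a match in 6 windows of 5 genes (5.5%), beside 0.676% of all windows and 0.705% of protein-coding ones. The shorter motif TGACG, which UPRE contains, had a match in 51 windows (46.8%), beside 20.8% and 23.6%. The windows of these genes were also richer in G and C, at 61.4% on average against 56.2% for protein-coding windows. A match is a run of letters and shows no binding. The 5 genes with UPRE, which by role are an Arf GTPase, coat genes and a syntaxin, are all printed. The match or its reverse complement CCACGTCA is in capitals. The windows are chr11:59228113-59228412 on the minus strand for Arf1, chr7:114254631-114254930 on the minus strand for Copb1, chr9:98563481-98563780 on the plus strand for Copb2, chr12:59011968-59012267 on the minus strand for Sec23a and chr19:8741174-8741473 on the plus strand for Stx5a.
Arf1: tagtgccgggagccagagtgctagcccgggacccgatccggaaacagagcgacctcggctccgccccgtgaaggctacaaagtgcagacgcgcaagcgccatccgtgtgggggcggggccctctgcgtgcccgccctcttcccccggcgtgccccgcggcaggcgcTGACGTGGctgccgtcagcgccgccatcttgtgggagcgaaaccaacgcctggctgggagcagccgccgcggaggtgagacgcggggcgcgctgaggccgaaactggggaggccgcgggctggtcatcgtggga
Copb1: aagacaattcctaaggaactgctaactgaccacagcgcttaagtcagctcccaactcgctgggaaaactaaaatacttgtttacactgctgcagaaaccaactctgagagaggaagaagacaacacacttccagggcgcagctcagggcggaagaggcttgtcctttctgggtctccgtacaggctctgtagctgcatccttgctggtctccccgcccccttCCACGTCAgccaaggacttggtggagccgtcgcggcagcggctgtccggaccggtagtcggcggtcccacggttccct
Copb2: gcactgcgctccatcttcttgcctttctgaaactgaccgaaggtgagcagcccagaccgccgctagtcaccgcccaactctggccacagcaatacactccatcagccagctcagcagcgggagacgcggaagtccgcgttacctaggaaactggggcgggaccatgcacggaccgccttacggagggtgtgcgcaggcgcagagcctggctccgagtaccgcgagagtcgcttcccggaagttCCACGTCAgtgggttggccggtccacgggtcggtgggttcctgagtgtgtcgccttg
Sec23a: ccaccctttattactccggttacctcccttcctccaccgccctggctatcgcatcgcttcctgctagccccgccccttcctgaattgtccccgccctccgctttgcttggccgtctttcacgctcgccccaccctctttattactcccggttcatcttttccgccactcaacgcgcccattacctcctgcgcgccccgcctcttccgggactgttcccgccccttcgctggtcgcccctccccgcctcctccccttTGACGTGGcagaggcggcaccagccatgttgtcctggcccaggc
Stx5a: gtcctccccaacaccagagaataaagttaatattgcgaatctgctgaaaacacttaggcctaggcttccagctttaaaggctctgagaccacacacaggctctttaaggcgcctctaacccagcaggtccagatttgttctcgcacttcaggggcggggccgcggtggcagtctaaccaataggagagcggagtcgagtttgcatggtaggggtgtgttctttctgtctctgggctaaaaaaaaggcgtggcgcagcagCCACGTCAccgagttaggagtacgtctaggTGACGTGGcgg
Counted from the transcript start, the match began 84 bases upstream in the Arf1 window printed, 28 upstream in Copb1 and 7 upstream in Copb2, and 7 bases downstream in Sec23a. A second Arf1 window, chr11:59228218-59228517, overlaps the first and holds the same match 22 bases downstream of its own start. Stx5a had matches at 10 and 40 bases downstream. Of these genes, Copb2 and Stx5a fell in LTCR livers on at least 1 probe set, whereas Arf1, Copb1 and Sec23a were not called there, at -0.00, -0.15, and -0.14 and 0.14 on the 2 Sec23a probe sets.

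In the vesicle coats, 1 of 8 COPII probe sets (12.5%) and 2 of 9 COPI probe sets (22.2%) fell in LTCR livers, beside the background of 11.8%, and none rose. The COPII share is thus near the background. Sec23b, an inner COPII subunit, had intensities of 361.8, 375, 432.5 and 335.9 in LTCR livers, against 498.1, 810.2, 699.2 and 580.1 in CON livers, on 98944_at. It fell by 0.72 on the log2 scale (SE 0.14, adjusted p = 0.000638), without overlap, while its other probe set stood at 0.21 ± 0.56. Sec13, Sec31a, Sec16a and Sec24c, which make the outer cage, scaffold the exit site or bind cargo, lay at 0.07, 0.06, -0.16 and -0.27 and were not called. Copb2, the COPI subunit whose promoter is shown above, had 208, 313.1, 281.8 and 304.5 in LTCR livers, against 475.7, 430.3, 516.7 and 513 in CON livers, on 93340_f_at. Its change was -0.76 ± 0.14 (adjusted p = 0.000284), against -0.13 ± 0.08 on 93341_r_at, which was not called. Copz1, another COPI subunit, fell by 0.49 on the log2 scale (SE 0.11, adjusted p = 0.00198). The COPI genes Copa, Copb1, Cope, Copg1 and Copz2 lay between -0.28 and 0.10 and were not called.

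The p24 cargo receptors, which help to select cargo for the coated vesicles, fell on 4 of 5 tested probe sets, for 3 of the 4 genes tested. Tmed7 fell on both of its probe sets, the only gene with more than 1 tested probe set of which all were called the same way. On 160183_f_at it had 1124.9, 1281.1, 1865 and 1221.9 in LTCR livers, against 1899.4, 1872, 2033.2 and 2184.1 in CON livers, a change of -0.56 ± 0.15 (adjusted p = 0.0106). LTCR 3 came close to the CON arrays, and without LTCR 1 the call ended (adjusted p = 0.0531). On 94903_at Tmed7 changed by -0.30 ± 0.08 (adjusted p = 0.0106). Tmed3 fell by 0.55 on the log2 scale (SE 0.16, adjusted p = 0.0122, and 0.0541 without LTCR 1). Tmed9 changed by -0.56 ± 0.18 (adjusted p = 0.0262), with overlapping groups and no call without LTCR 1, LTCR 2, CON 1, CON 2 or CON 3 (adjusted p between 0.056 and 0.128). Tmed4 stood at 0.01. Probe sets outside the gene set that list a p24 gene beside other symbols were not called. They stood at -0.01 for Tmed10 and at -0.14, 0.00 and 0.03 for Tmed2.

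Among the Arf GTPases, which recruit coats, 2 of 8 probe sets rose and none fell. Arf3 had 1002.8, 903, 1001 and 998.2 in LTCR livers, against 842.7, 799.2, 638.6 and 765.8 in CON livers, on 93700_at, a change of 0.35 ± 0.11 (adjusted p = 0.0223). Arf5 had 2721.5, 2326.8, 2232.3 and 2386.2 in LTCR livers, against 2046.7, 2136, 1900.8 and 1752.9 in CON livers, a change of 0.30 ± 0.08 (adjusted p = 0.0113). Neither overlapped with CON, yet the Arf3 call ended without LTCR 1, LTCR 4 or CON 3 (adjusted p between 0.0535 and 0.107) and the Arf5 call without LTCR 1 (0.0623) or CON 4 (0.056). Arf1, which recruits COPI to the Golgi apparatus, was level at -0.00 ± 0.06. Arf6, which acts at the plasma membrane, stood at 0.48 and -0.29 on its 2 probe sets, neither called.

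The Rab GTPases were called lower on 7 (20.6%) and higher on 3 (8.82%) of 34 tested probe sets. Rab18, which sits on lipid droplets and the ER, had 1404.9, 1361.3, 1547.9 and 1404.6 in LTCR livers, against 2512.5, 2102.7, 2713.3 and 2429.5 in CON livers. The groups were far apart, with a log2 change of -0.76 ± 0.10 (adjusted p = 4.57e-06). Rab11a, of the recycling endosome, had 18.4, 74.9, 77.7 and 78.2 in LTCR livers, against 135.3, 209.8, 198.6 and 145.9 in CON livers, on 96238_at. The change of -1.22 ± 0.24 (adjusted p = 0.000646) was the lowest of all tested members, but the second Rab11a probe set, 92854_at, stood at -0.04 ± 0.07. Rab14, which works between the Golgi apparatus and endosomes, fell by 0.43 on the log2 scale (SE 0.08, adjusted p = 0.000347) on 97301_at and was not called on its other probe sets, at -0.07 and 0.05. Rab5c, of the early endosome, had 854.2, 982.1, 927.3 and 969.3 in LTCR livers, against 1154.1, 1257.3, 1296.2 and 1311.5 in CON livers, and fell by 0.42 on the log2 scale (SE 0.08, adjusted p = 0.000356).

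Other Rabs that fell act between ER and Golgi apparatus or at the plasma membrane. Rab2a, of ER-Golgi traffic, changed by -0.53 ± 0.12 (adjusted p = 0.00253). Rab1a, of the same route, changed by -0.36 ± 0.11 (adjusted p = 0.0237), and its call ended without LTCR 1, LTCR 2, CON 1 or CON 2 (adjusted p between 0.0612 and 0.0927). Rab10, which serves delivery to the plasma membrane, changed by -0.49 ± 0.12 on 160149_at (adjusted p = 0.00455) and by -0.10 on 101933_at, not called. Rab6a, of the route from the Golgi apparatus back to the ER, was not called, at -0.11 and 0.19 on its 2 probe sets.

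The share of Rab probe sets that rose, 8.82%, was near the 7.53% of all tested probe sets. The Rabs that rose act on endosomes, as do Rab11a, Rab14 and Rab5c, which fell. Rab9, of the route from late endosomes to the Golgi apparatus, had 2618.4, 2537.9, 3122.3 and 2452.5 in LTCR livers, against 2107.3, 2026.9, 1725.4 and 1917.1 in CON livers, a change of 0.46 ± 0.08 (adjusted p = 0.000241). Rab4a, of fast recycling from early endosomes, had 916.5, 1274.5, 1046.2 and 1324.5 in LTCR livers, against 785.1, 755.5, 898 and 774.9 in CON livers, a change of 0.48 ± 0.11 (adjusted p = 0.00269). Rab5b had 374.1, 353.1, 326.5 and 511 in LTCR livers, against 326.2, 309.7, 239.7 and 287.4 in CON livers, a rise that passed at an adjusted p of 0.0381. The Rab5b groups were divided by less than 1 array unit, and the call ended without LTCR 1, LTCR 4, CON 3 or CON 4 (adjusted p between 0.062 and 0.192). The close relative Rab5a was not called, at -0.18 ± 0.09. The other tested Rabs lay between -0.41 for Rab20 and 0.50 for Rab3a, and none was called.

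Of the Rab-linked genes, 2 of 4 probe sets rose. Rab5if, named for an interaction with Rab5, had 5930.7, 4385, 5195.1 and 6392.5 in LTCR livers, against 3917, 3593.2, 4189 and 3324.3 in CON livers. Every LTCR array exceeded every CON array, by 0.53 ± 0.11 on the log2 scale (adjusted p = 0.00125). Rab3ip, an exchange factor for Rab8, had 356.2, 396.3, 396 and 434.2 in LTCR livers, against 324.4, 277.2, 323.5 and 291.6 in CON livers, on 95539_at. This rise was 0.35 ± 0.10 (adjusted p = 0.0112), against 0.18 on 161209_r_at, which was not called.

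Among the SNAREs, 2 of 8 syntaxin probe sets and 1 of 2 Sec22b probe sets fell, and 0 of 9 Vamp probe sets was called. Stx4a, of the plasma membrane, had 281.6, 378.6, 222.8 and 314.7 in LTCR livers, against 449.5, 523.3, 464.5 and 524.2 in CON livers, a change of -0.68 ± 0.14 (adjusted p = 0.00108). Sec22b and Stx5a act in the same fusion step between ER and Golgi apparatus. Sec22b had 376.7, 360.5, 394.8 and 410.4 in LTCR livers, against 510.3, 477.5, 566.9 and 557.1 in CON livers, on 93440_at, a change of -0.43 ± 0.08 (adjusted p = 0.000574). Its second probe set lay at -0.41 ± 0.16 (adjusted p = 0.0778). Stx5a changed by -0.28 ± 0.10 (adjusted p = 0.0363), with overlapping groups and no call without LTCR 1, LTCR 3, LTCR 4, CON 2, CON 3 or CON 4 (adjusted p between 0.0583 and 0.136), and with array quantiles made equal its adjusted p was 0.0681. The Vamps ranged from -0.48 on 1 Vamp4 probe set to 0.43 for Vamp1, and the other syntaxins from -0.46 for Stx6 to 0.14 for Stx12. The Sec14-like genes stood between -0.26 and 0.61, and Rab10os at -0.07.

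For 24 of the genes more than 1 probe set was tested. In LTCR against CON livers the probe sets of 10 genes had the same sign and those of 14 had both signs. Of the 12 genes with a call, Tmed7 was called lower on both of its probe sets, Sec61a1 was called in both directions, and 10 were called on some probe sets only. Rab11a, Sec23b, Ssr1, Copb2, Sec62, Rab14, Rab10, Sec22b, Arf3 and Rab3ip make up the last set, and their values stand above. Suffixes such as _f, _s, _r and _g mark probe sets that may take signal from related transcripts; 98 of the 115 tested had the plain suffix. Whether these differences come from transcript forms or from the probes was not tested.

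**Figure D3:**
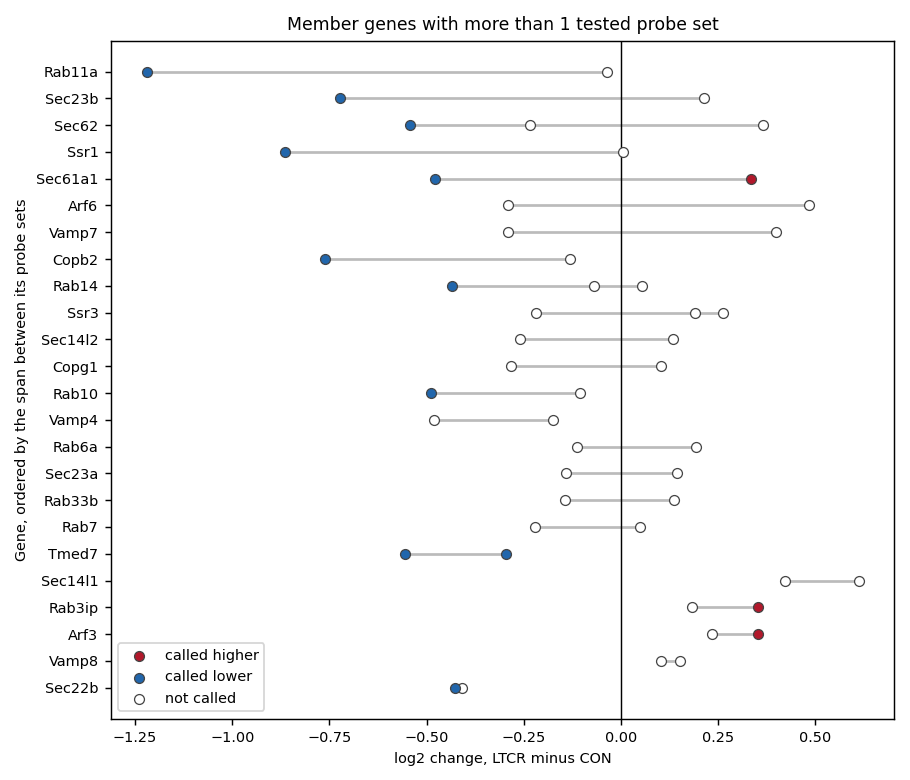
The log2 change, LTCR minus CON, on each tested probe set of the 24 genes that had more than 1, joined by a line per gene, with genes ordered by the span of their probe sets. Rab11a spans from -1.22 to -0.04 and Sec61a1 has a filled blue and a filled red point, while the Sec22b points lie side by side.

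Partners of this machinery outside the gene set were read against the same background shares. In LTCR against CON livers, 8 of 23 measured genes of ER import and N-glycosylation fell (34.8%, beside the background of 11.8%) and 2 rose. The ER chaperone gene Hspa5 averaged 2965 ± 749.8 in LTCR livers and 5643 ± 311.7 in CON livers (SD, n = 4 each), a log2 change of -0.95 ± 0.15 (adjusted p = 3.78e-05). The oligosaccharyltransferase subunits Ddost and Rpn1 changed by -1.10 ± 0.22 and -0.68 ± 0.17, the co-chaperones Dnajc1 and Dnajc3 by -0.56 ± 0.12 and -0.56 ± 0.15, and the mannosyltransferase Alg2 by -0.51 ± 0.14. Of 35 measured genes of ER-Golgi transport and fusion 7 fell (20%) and 1 rose, among them the tether Uso1 (-0.85 ± 0.17), the SNAREs Vti1b (-0.77 ± 0.12) and Bet1 (-0.66 ± 0.17), Trappc4 of a tethering complex (-0.64 ± 0.15), Stxbp3, which binds Stx4a (-0.58 ± 0.12), and the Golgi membrane gene Yipf5 (-0.37). Of 31 measured genes of clathrin and the Rab cycle 5 fell (16.1%) and 3 rose. Rises made up 8.7%, 2.86% and 9.68% of these lists, in the order given, beside 7.53% of all tested probe sets. The share for clathrin and the Rab cycle was thus near the background. The clathrin light chains Clta and Cltb each rose by 0.49 and Rabac1, a Rab acceptor, by 0.59 ± 0.09, while the clathrin heavy chain Cltc changed by -0.34 ± 0.08, the retromer gene Vps29 by -0.59 ± 0.12 and Vps4b, of the ESCRT pathway, by -0.56 ± 0.10.

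CR8 against CON tested restriction that began late. It called 0 of 115 members, beside 0.544% of all tested probe sets, and 13 members (11.3%) had an unadjusted p under 0.05, beside 11.6% of all tested probe sets. The median log2 change was -0.05 over members and -0.02 over all. Rab18 had 1935.3, 2290.7, 2509.4 and 2035.5 in CR8 livers and Srp14 had 1435.1, 1585.3, 1448.8 and 1448.3, ranges that overlap with the CON arrays given above. Among the partners, Hspa5 was called, at -0.71 (adjusted p = 0.0173).

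The direct comparison of LTCR with CR8 livers, which shares the LTCR arrays with the comparison above, called 25 of 115 members (21.7%), beside 12% of all tested probe sets. Lower in LTCR livers were 16 (13.9%, background 7.34%) and higher were 9 (7.83%, background 4.65%), with a median log2 difference of -0.03 over members and 0.01 over all. Sec23b fell by 0.72 on the log2 scale (SE 0.14, adjusted p = 0.00142), with 711.6, 560.3, 613.5 and 672.9 in CR8 livers beside the LTCR arrays given above. Copb2 differed by -0.76 ± 0.14 (adjusted p = 0.000701), with 450.5, 511.4, 503.4 and 465.9 in CR8 livers. On these probe sets, 98944_at of Sec23b and 93340_f_at of Copb2, no LTCR array reached the CR8 arrays. The other probe set of each gene was not called, at -0.07 for Sec23b and -0.04 for Copb2. In this comparison array values are given for called members whose groups did not overlap, so that the lack of overlap follows from that choice.

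Members of several roles had lower levels in LTCR livers, with CR8 as the comparison. The differences were -0.60 ± 0.10 for Rab18 (adjusted p = 0.000212), -0.50 for Srp14 (0.000522) and -0.50 ± 0.08 for Sec22b, whose CR8 arrays were at 552.8, 553, 575.1 and 536.4 (0.000288). Rab11a on 96238_at had 116.2, 159.8, 134.5 and 167.6 in CR8 livers and differed by -1.01 ± 0.24 (0.00668), and Rab10 had 1040.2, 949.5, 833.3 and 912.3 and differed by -0.54 ± 0.12 (0.00392). Tmed3 had 375.3, 372.8, 477.3 and 360.3 in CR8 livers and differed by -0.53 ± 0.16 (0.0241), a call that ended without LTCR 1 (0.0887) or CR8 3 (0.0826). Together with Sec23b and Copb2, these 6 were the 8 largest falls among called members without overlap between LTCR and CR8 livers. The other probe sets of Sec22b (-0.05), Rab11a (-0.05) and Rab10 (0.10) were not called. For 24 genes more than 1 probe set was tested, and 14 of these genes had both signs here. Of the 13 with a call, Sec61a1 was called in both directions and 12 on some probe sets only. Rab14 fell on 1 of 3 probe sets, with another at 0.27. Rab14 (-0.46), Rab5c (-0.33), Spcs2 (-0.43), Stx5a (-0.42, adjusted p = 0.00444), Stx4a (-0.49), Sec62 on 92531_at (-0.49), Sec61a1 on 160291_at (-0.39) and Tmed7 on 94903_at (-0.25) were also called. Of these, Stx4a lost the call without LTCR 1, LTCR 3 or CR8 3 (adjusted p between 0.0638 and 0.0944) and Sec62 without LTCR 4, CR8 2, CR8 3 or CR8 4 (0.0509 to 0.0926). Sec61a1 and Tmed7 lost it without LTCR 1, LTCR 2, LTCR 4 or any 1 of the CR8 arrays (0.0579 to 0.207). On Sec62 (92531_at) and Sec61a1 (160291_at) the LTCR and CR8 arrays overlapped.

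Higher in LTCR than in CR8 livers were 9 probe sets for 8 genes. They were the ER genes Ssr3 and Sec61a1, the coat gene Sec23a, Arf3, Arf5 and the endosomal Rab5b, Rab7 and Rab9. Ssr3, a subunit of the translocon-associated complex, had 1751, 1552.9, 2226 and 2181.7 in LTCR livers, against 1404.4, 1205.5, 1366.6 and 1290.7 in CR8 livers, on 104248_at, a difference of 0.53 ± 0.14 (adjusted p = 0.0111). On 104249_g_at, Ssr3 had 1310.5, 1058.2, 1567.4 and 1532.9 in LTCR livers, against 956.3, 751.6, 1046.4 and 793.6 in CR8 livers, and that call (0.61 ± 0.19, adjusted p = 0.0323) ended without LTCR 1, LTCR 3, LTCR 4, CR8 2 or CR8 4 (adjusted p between 0.0606 and 0.105). Neither of these probe sets overlapped between the groups. The third Ssr3 probe set, 96007_at, stood at -0.18 ± 0.08, with overlapping groups and no call, so that the gene has no single direction. Rab5b, with 244.9, 253.7, 207 and 224.9 in CR8 livers, differed by 0.67 ± 0.13 (adjusted p = 0.00119). Rab7, of the late endosome, had 1198.9, 1090.8, 1114.5 and 1240.9 in LTCR livers, against 879, 759.4, 989.5 and 767 in CR8 livers, on 95785_s_at, a difference of 0.45 ± 0.11 (adjusted p = 0.00665). Its other probe set stood at -0.05, not called. Rab9, with 2017.4, 2280.9, 2048.1 and 2181.2 in CR8 livers, differed by 0.32 (adjusted p = 0.01), again without overlap. Arf3 (0.40), Arf5 (0.29), Sec61a1 on 97882_at (0.34) and Sec23a on 93711_at (0.46) were also higher. The Arf3 call ended without CR8 2 (adjusted p = 0.0634), the Arf5 call without LTCR 1 (0.0976) or CR8 2 (0.0709), and the Sec61a1 call without LTCR 1, LTCR 4, CR8 1 or CR8 2 (0.0505 to 0.0746). The groups overlapped for Sec23a, and its call ended without any 1 of the LTCR arrays, CR8 1, CR8 2 or CR8 4 (0.064 to 0.167).

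The 3' to 5' ratio differed between these groups. It was lower in LTCR than in CR8 livers by 0.80 on the log2 scale (exact permutation p = 0.0286, two-sided, the smallest that 4 against 4 allows; 0.229 after adjustment over 8 comparisons). With the ratio as a covariate, 6 of the 25 calls stayed, those of Srp14, Spcs2, Sec22b, Rab10, Rab18 and Sec23b, all lower. Among the calls that ended, the difference with the covariate was of about the same size for Rab11a (-1.03, adjusted p = 0.0861), Sec62 (-0.54), Tmed3 (-0.57), Sec61a1 on 160291_at (-0.40) and on 97882_at (0.30), Tmed7 (-0.27), Sec23a (0.56) and Rab9 (0.32). It was smaller for Ssr3 (0.13 and 0.06), Stx4a (-0.28), Arf5 (0.17) and Arf3 (0.24), and to a lesser degree for Copb2 (-0.63), Rab14 (-0.36), Rab5c (-0.25), Stx5a (-0.30), Rab7 (0.31) and Rab5b (0.45). Without the 5 arrays that carry muscle transcripts, which leaves CR8 with 2 arrays, 12 members were called, 2 higher and 10 lower. The part of RNA quality and of muscle in the other calls was not tested.

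**Figure D4:**
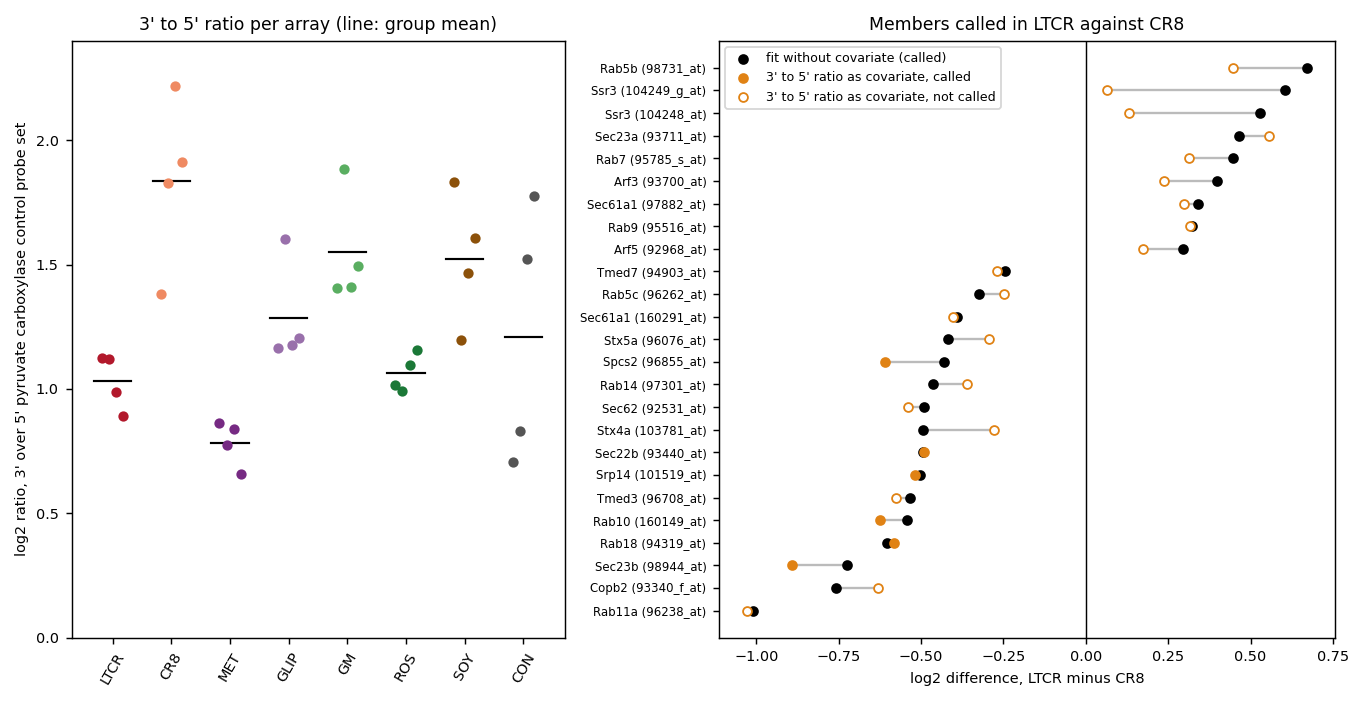
Left, the log2 ratio of 3' to 5' pyruvate carboxylase control probe sets per array, with a line at each group mean. Right, the log2 difference, LTCR minus CR8, of the 25 called probe sets without the ratio as a covariate (black) and with it (orange, filled where still called): both Ssr3 points move towards 0, and Rab11a, Rab9, Sec61a1, Srp14, Sec22b and Rab18 hardly move.

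Metformin gave 5 called members in MET against CON livers (4.35%), beside 4.17% of all tested probe sets. Higher were 3 (2.61%, background 1.83%) and lower 2 (1.74%, background 2.34%), so that the share was near the background. The hepatocyte marker sum was 139100 to 146300 in MET livers, without overlap with CON livers, and the 3' to 5' ratio averaged 0.78 ± 0.09 in MET livers and 1.21 ± 0.52 in CON livers (SD, n = 4 each). The part of the cell makeup in these calls was not tested. Ssr3 on 104248_at had 2616.1, 2279.6, 2818.1 and 2373.9 in MET livers, against 2155.6, 1818.1, 1221.6 and 1321.4 in CON livers, a rise of 0.65 ± 0.14 (adjusted p = 0.00764). Arf5 had 2402.9, 2582.6, 2682.2 and 2452.4 in MET livers and rose by 0.37 ± 0.08 (adjusted p = 0.0136, and 0.0586 without CON 4). Sec14l2, a lipid-binding protein, had 4885.5, 5360.2, 4894.3 and 4565.9 in MET livers, against 4252.3, 4197.1, 3495.3 and 4063.4 in CON livers, on 96758_s_at, a rise of 0.30 ± 0.08 (adjusted p = 0.0404). The other probe sets of these genes were not called: 96759_r_at of Sec14l2 stood at -0.14, and the remaining 2 of Ssr3 at 0.53 and -0.05. Copb2 had 373.8, 280.2, 273.3 and 376.1 in MET livers and changed by -0.54 ± 0.14 (adjusted p = 0.0261), on 93340_f_at, against -0.04 on 93341_r_at, not called. Rab18 had 1905.1, 1765.2, 1673.8 and 1917.8 in MET livers and changed by -0.42 ± 0.10 (adjusted p = 0.0174).

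No called member overlapped between MET and CON livers. The Sec14l2 call ended without MET 1, MET 2, MET 3, CON 1, CON 3 or CON 4 (adjusted p between 0.0522 and 0.147), that of Copb2 without MET 2, MET 3, CON 1, CON 3 or CON 4 (0.0552 to 0.083), and that of Rab18 without MET 3 (0.0519) or CON 3 (0.0624). The Ssr3 call passed with any single array left out. With the 3' to 5' ratio as a covariate the calls of Arf5 (0.30, adjusted p = 0.0616) and Copb2 (-0.48, 0.0907) ended. Without CON 3 and the other arrays that carry muscle transcripts, 0 members were called, at changes of 0.53 for Ssr3, 0.35 for Arf5, 0.24 for Sec14l2, -0.51 for Copb2 and -0.36 for Rab18 (adjusted p between 0.0622 and 0.157). Copb2, Rab18 and Arf5 were also called in LTCR livers, against the same CON arrays.

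GM livers, which had received glipizide and metformin together, gave 4 called members, beside 1.55% of all tested probe sets: 3 higher (background 0.87%) and 1 lower (background 0.68%). Sec61b, a small subunit of the channel, had 902.5, 881, 1705.3 and 911.2 in GM livers, against 578.5, 606.3, 572.8 and 569.6 in CON livers, a rise of 0.83 ± 0.19 (adjusted p = 0.0274). GM 3 stood far above the other GM arrays, and without it the change was 0.60 with an adjusted p of 0.0734; the call also ended without CON 1, CON 3 or CON 4 (0.0517 to 0.0698). Sec62 on 99501_at had 296.5, 409, 344 and 295.8 in GM livers, against 438.1, 500.8, 684 and 486 in CON livers, a change of -0.60 ± 0.15 (adjusted p = 0.0364). Its other 2 probe sets stood at 0.18 and 0.11, not called. Arf1, whose promoter is shown above, had 8063.9, 8507.9, 8638.6 and 7507.5 in GM livers, against 6845, 7465.3, 6524.2 and 6633.6 in CON livers, a rise of 0.25 ± 0.06 (adjusted p = 0.0327). Arf5 had 2828.1, 2384.7, 2292 and 2633.2 in GM livers and rose by 0.37 ± 0.08 (adjusted p = 0.0277).

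None of these 4 overlapped with CON, and each lost its call without some single array. For Sec62 these were GM 1, GM 3, GM 4, CON 2, CON 3 and CON 4 (adjusted p between 0.0541 and 0.106), for Arf1 GM 1, GM 2, GM 3, CON 1, CON 3 and CON 4 (0.0687 to 0.0867), and for Arf5 GM 1, GM 4, CON 3 and CON 4 (0.0578 to 0.0916). Over all probe sets, the median change in GM against CON was -0.05 as deposited and 0.09 with array medians made equal. Over the members it was 0.04 and 0.17. Under equal medians 11 members were called, all of them higher and without Sec62. That count stands without the share called over all probe sets in that setting. Without the 5 arrays that carry muscle transcripts, CON 3 among them, 0 members were called in GM livers, at changes of 0.82 for Sec61b, 0.35 for Arf5, 0.23 for Arf1 and -0.48 for Sec62 (adjusted p between 0.0706 and 0.138). Quantile normalization gave Arf1 a change of 0.15 (adjusted p = 0.193), and with the 3' to 5' ratio as a covariate the calls of Arf1 (0.0586) and Sec62 (0.0701) ended. That ratio averaged 1.55 ± 0.23 in GM livers and 1.21 ± 0.52 in CON livers (SD, n = 4 each). In SOY against CON the median over all probe sets was -0.03 as deposited and 0.08 with equal medians.

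The remaining drugs gave no called member. In GLIP against CON 0 of 115 was called, beside 0.136% of all tested probe sets, with 18 members (15.7%) at an unadjusted p under 0.05, beside 9.37% of all tested. In ROS against CON 0 was called, beside 0.136%, with 8 (6.96%, beside 8.41%) at an unadjusted p under 0.05, and in SOY against CON 0, beside 0%, with 12 (10.4%, beside 8.17%). Median log2 changes of the members were 0.05, 0.01 and 0.01 in GLIP, ROS and SOY livers. Sec61b had 797.8, 686.5, 1022.7 and 817.1 in GLIP livers, 719, 872, 684.8 and 753.9 in ROS livers, and 771.7, 991.9, 613.3 and 692.5 in SOY livers. All of these lay above its CON arrays, with log2 changes of 0.48, 0.36 and 0.36 that were not called.

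**Figure D5:**
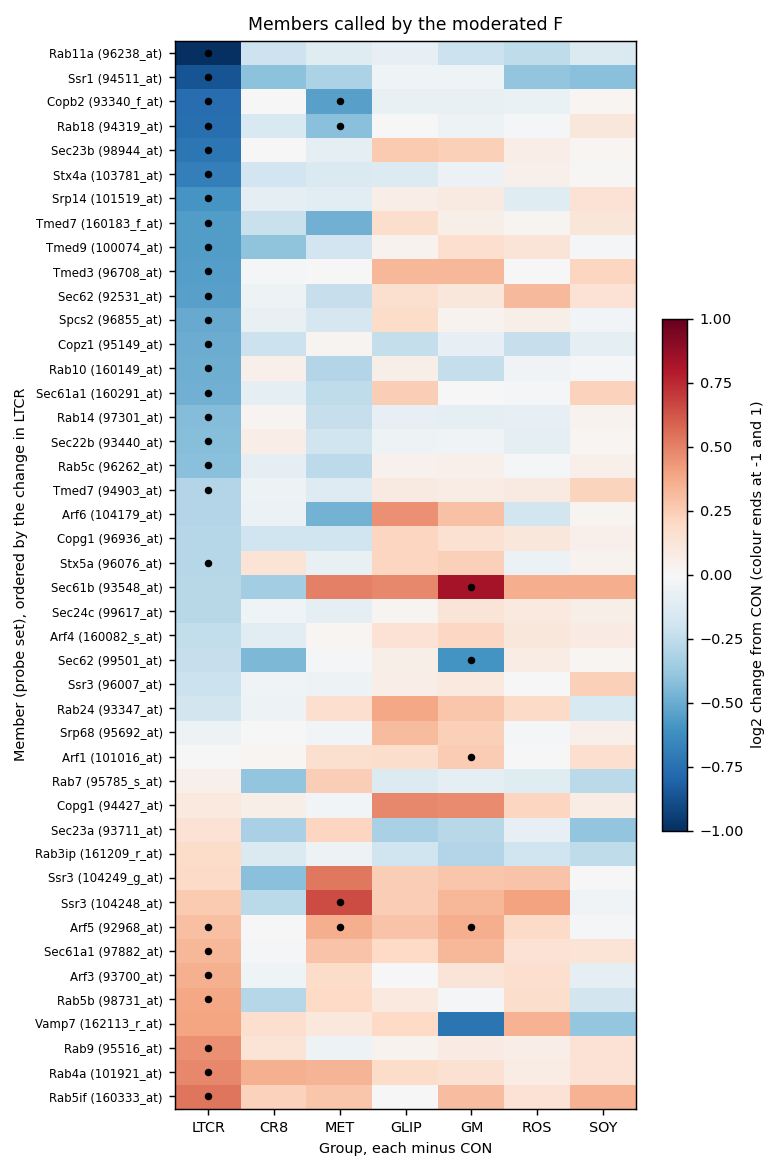
Log2 change against CON of the 44 members called by the moderated F test, in each of the 7 other groups, on a colour scale that ends at -1 and 1, with a dot where the comparison itself passed. Dots lie in the LTCR, MET and GM columns; the CR8, GLIP, ROS and SOY columns have none.

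The 27 probe sets left out of the tests had mean intensities between 4.197 and 96.25 over all arrays. They were the only probe sets of 16 genes: Rab11fip5, Rab23, Rab26os, Rab31, Rab33a, Rab35, Rab3b, Rab8b, Sec1, Sec23ip, Sec24b, Ssr4, Stx1a, Stx3, Tmed8 and Vamp5. No change is reported for these genes.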

How the data were processed

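Liver RNA of 32 mice was measured on 1 array each. The deposited table held a linear intensity for each probe set on each array, already scaled by the authors: the mean of each column without its top and bottom 2% was 499.9. Not given in the sources used here were the software, its background correction, detection calls and batches. Of 12488 probe sets, 66 controls were left out, and among the other 12422 the platform annotation gave 1 symbol for 10833, several for 396 and none for 1193; only the first were named.

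The deposited intensities were taken to log2 after adding 27, their 20th percentile, which understates changes of dim genes. Probe sets were kept when their mean log2 value exceeded that of 94.2, the 40th percentile, leaving 7357. A single model of the 8 group means was fitted with limma (version 3.58.1, R version 4.3.3; lmFit, and eBayes with trend), which had 24 residual degrees of freedom and a prior of 4.59. It gave a moderated F and 8 contrasts, with Benjamini-Hochberg adjustment over all tested probe sets. Errors are SE of the fit unless given as SD. Precision is limited by the 4 arrays per group, and p-values reflect the spread between mice. Groups came from the sample titles.

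Array values are given for called members whose groups do not overlap, up to 8 higher and 8 lower per comparison by size of change, for the 8 members with the smallest F p, and for some other members that are described. Partner genes are those called in LTCR against CON, up to 6 a list by smallest p, with 1 probe set per gene. Members and lists were chosen with earlier results of these data known. Each member was put into a role by textbook function.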

Additional observations from a re-analysis of the deposited data

Results flagged for a closer look

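In groups of 4 arrays, a single array was picked out when its gap to the nearest other array took up a larger share of the range of the group than Dixon's 95% critical value. Of 216 groups checked, 14 had such an array, and chance gives about 1 in 20. Among LTCR arrays, Rab11a (96238_at) was at 18.4 in LTCR 1, against 74.9 to 78.2 in the others, and Arf3 (93700_at) at 903 in LTCR 2, against 998.2 to 1002.8. The Rab11a array lies on the far side of its group from CON, and the Arf3 array on the near side.

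In CR8 livers, Srp14 was at 1585.3 in CR8 2, against 1435.1 to 1448.8 in the others. CR8 3 stood high for Arf1 (7312.2, others 6819.3 to 6880.9) and for Tmed3 (477.3, others 360.3 to 375.3). In MET livers, MET 3 was high for Sec61a1 on 97882_at (3418.8, others 2466.3 to 2585.3) and low for Rab10 on 160149_at (516.4, others 809.4 to 823.4), and MET 1 was high for Arf1 (8050.5, others 7516.7 to 7599.4).

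GM 3 was high for Sec61b (1705.3, others 881 to 911.2) and for Tmed7 on 160183_f_at (2389.9, others 1960.8 to 2011.8). The GLIP 1 array was low for Stx4a (344.7, others 465.5 to 489.1) and ROS 1 low for Srp14 (1265.5, others 1493.9 to 1519.1). In SOY livers, SOY 4 was low for Tmed3 (335, others 510 to 540.7) and SOY 2 high for Sec22b on 93440_at (618.1, others 504.5 to 519).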

How the results depend on the processing

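No named change reversed its sign under any alternative that was run. Some settings left probe sets out, and a member was judged only in settings that tested it. Counts of called members under the alternatives are given without the share called over all probe sets in each. The filter at the 60th percentile tested 27 of the 31 members called in LTCR against CON, and all of them passed. Of the 31 members, 29 passed under every scaling, added value and filter that tested them. With each array left out in turn 21 passed, and 19 passed in every setting that tested them. Of the 25 in LTCR against CR8 these numbers were 20, 15 and 4, of the 5 in MET against CON 2, 1 and 0, and of the 4 in GM against CON 2, 0 and 0. Srp14, Sec22b, Rab18 and Sec23b passed in every setting in both comparisons of LTCR, which share the LTCR arrays. The fit with 1 probe set per gene kept the brightest. It left out the probe sets of Rab11a, Ssr1 and Copb2 called in LTCR against CON, which count among the 19 on 18 settings each. The brighter probe sets of these genes, at -0.04, 0.01 and -0.13 in LTCR against CON, were not called.

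With MET and CON fitted alone 0 members were called in place of 5, with 1 probe set per gene or with plain suffixes only 3, and without the arrays that carry muscle transcripts 0. For GM against CON, with 4 calls, quantile normalization gave 2, equal medians 11, no filter 2, the 2 groups fitted alone 0, and leaving out the muscle arrays 0. For LTCR against CR8, with 25 calls, the 2 groups alone gave 16, leaving out the muscle arrays 12, and the 3' to 5' ratio as a covariate, chosen after seeing the data, 6. Fits of 2 groups alone have fewer arrays to estimate the spread. For MET against CON, 1 probe set per gene and plain suffixes ended no call, and the calls missing there had been left out of the fit. The cause of the other shifts was not tested. Under equal medians MET against CON had 5 higher and 0 lower calls, against 3 and 2 as deposited.

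With each array left out in turn, the F test called 38 to 46 members, LTCR against CON 23 to 33, CR8 against CON 0 to 1, MET against CON 2 to 6, GLIP against CON 0 to 1, GM against CON 0 to 4, ROS and SOY against CON 0 to 0, and LTCR against CR8 17 to 24. MET against CON gave 2 without MET 3, CON 3 or CON 4 and 3 without MET 2. GM against CON gave 0 without CON 3 or CON 4, 1 without GM 1 or GM 3 and 2 without GM 4 or CON 1.

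Arrays of the same number showed no common deviation, with a median correlation of -0.00628 over 112 pairs, against -0.00102 over 336 pairs of different number. No pairing of mice by number was seen, though 4 arrays per group cannot exclude a weak one. With the replicate number as a block the F test called 44 members, LTCR against CON 32, MET against CON 5, GM against CON 4, LTCR against CR8 23, and CR8, GLIP, ROS and SOY against CON 0 each. The 4 mice per group and probe sets without detection calls limit what can be seen of dim genes.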

Other observations

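Probe sets whose platform annotation lists several symbols were outside the gene set. Of these, the one that lists Sec61g, the smallest subunit of the channel, stood at 0.00 ± 0.12 in LTCR against CON livers (adjusted p = 0.995), and the one that lists Tmed10, a p24 receptor, at -0.01 (adjusted p = 0.965). The 3 probe sets that list Tmed2, another p24 receptor, stood at -0.14, 0.00 and 0.03. The last of these averaged 3061 ± 258.9 in GM livers and 2266 ± 234.2 in CON livers (SD, n = 4 each), a log2 change of 0.43 ± 0.09 with an adjusted p of 0.0191. The others were not called in GM livers, at 0.57 (adjusted p = 0.22) and 0.21 (0.391). In GLIP livers the last probe set averaged 3036 ± 88.94 (SD), a change of 0.42 that was not called (adjusted p = 0.0601).

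Against CON, MET livers had calls in 3 of 23 partner genes of ER import and N-glycosylation (13%), 3 of 35 of ER-Golgi transport and fusion (8.57%) and 4 of 31 of clathrin and the Rab cycle (12.9%), beside 4.17% of all tested probe sets; hepatocyte marker sums of MET and CON livers did not overlap. In MET livers the oligosaccharyltransferase subunit Dad1 rose by 0.46, Rabac1 by 0.46, the clathrin light chain Clta by 0.37, the cargo receptor Surf4 by 0.34, Stxbp2 by 0.41 and Bag6, which handles tail-anchored proteins, by 0.41, while Dpm1, a subunit of dolichol phosphate mannose synthase, changed by -0.45, Stxbp3 by -0.41, Vps4b by -0.38 and Ap3d1 by -0.32. GM livers had 1 call in each list (4.35%, 2.86% and 3.23%), beside 1.55%. In GM livers Dad1 (0.50), the KDEL receptor Kdelr1 (0.32) and Rabac1 (0.54) rose. Between LTCR and CR8 livers 3, 2 and 5 partners were called (13%, 5.71% and 16.1%), beside 12%. LTCR livers were higher than CR8 livers for Cltb (0.67), Rabac1 (0.51), Clta (0.39) and Snx2 (0.30), and lower for Dnajb9 (-0.86), Alg2 (-0.53), Vps4b (-0.52), Dnajc1 (-0.50), Vti1b (-0.39) and Stxbp3 (-0.37).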
